A study of Mus musculus with 5 samples.

Results

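Fatty acid uptake and binding genes are described here in the epithelium of the mouse ileum after removal of a length of small bowel. The 8 genes were taken by symbol from the deposited table of 27998 genes: Fabp1, Fabp2, Cd36, Slc27a4, Acsl5, Acsl3, Acbd3 and Dbi. All 8 were found once and all 8 passed the filter on low counts in enterocyte-like cells. The study profiled single cells of the distal small intestine (ileum) from C57BL/6 mice aged 8 to 12 weeks by droplet RNA sequencing with 10x Chromium 3′ chemistry. There were 3 libraries from sham-operated mice (sham 1, 2 and 3) and 2 from mice with small bowel resection (resection 1 and 2). The labels name no transgene or further treatment, and they do not say how many mice a library holds or how long after surgery the tissue was taken. P-values therefore measure the spread between these libraries, which may be technical.

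Long-chain fatty acids reach the enterocyte from the lumen, where bile acids hold them in micelles. At the brush border they cross with the help of membrane proteins such as CD36, a scavenger receptor that binds fatty acids, and FATP4, the product of Slc27a4, which also has acyl-CoA synthetase activity. In the cytosol they are carried by FABP1 (liver type) and FABP2 (intestinal type), and long-chain acyl-CoA synthetases such as ACSL5 and ACSL3 join them to coenzyme A. Acyl-CoA esters are bound by DBI, the acyl-CoA binding protein, and ACBD3 is a Golgi protein with an acyl-CoA binding domain. In the normal mouse, FABP1 and FABP2 are most abundant in the proximal small intestine, and the ileum is marked by another family member, the bile acid binding protein FABP6.

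On the GRCm38 assembly with GENCODE annotation, Fabp1 (ENSMUSG00000054422) lies on chromosome 6 at 71199827 to 71205023 on the plus strand, and Fabp2 (ENSMUSG00000023057) on chromosome 3 at 122895072 to 122899506 on the plus strand. Cd36 (ENSMUSG00000002944) lies on chromosome 5 at 17781690 to 17888801 on the minus strand. Slc27a4 (ENSMUSG00000059316) is on chromosome 2 at 29802634 to 29817522, plus strand. Acsl5 (ENSMUSG00000024981) is on chromosome 19 at 55251938 to 55297720, plus strand. Chromosome 1 carries Acsl3 (ENSMUSG00000032883) at 78657825 to 78707743 on the plus strand, Acbd3 (ENSMUSG00000026499) at 180726043 to 180754204 on the plus strand, and Dbi (ENSMUSG00000026385) at 120113280 to 120121078 on the minus strand. Acsl3 overlaps Utp14b on the same strand, and Fabp2, Acsl5 and Acbd3 each overlap another counted gene on the opposite strand. How reads in such overlaps were assigned is not given in the sources used here.

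The stretch from 150 to 54 bases before the RefSeq start of 3 members is shown because the results turn on these genes: Fabp1 and Fabp2 for the difference between libraries, and Acsl3 for the difference between the surgeries in its course along enterocyte maturity. RefSeq (GRCm38.p6) gave a promoter for 7 of the 8 genes. Capitals mark matches to a nuclear receptor direct repeat (Fabp1) and to an HNF4 site (Fabp2). All 3 windows are on the plus strand, Fabp1 at chr6:71199729-71199825, Fabp2 at chr3:122894922-122895018 and Acsl3 at chr1:78657675-78657771. For Fabp1 the RefSeq start lies inside the GENCODE gene, and the window ends just before the GENCODE start at 71199827. For Fabp2 and Acsl3 the RefSeq and GENCODE starts are the same.
Fabp1: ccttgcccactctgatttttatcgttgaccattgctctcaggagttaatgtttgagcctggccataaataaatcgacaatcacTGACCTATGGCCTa
Fabp2: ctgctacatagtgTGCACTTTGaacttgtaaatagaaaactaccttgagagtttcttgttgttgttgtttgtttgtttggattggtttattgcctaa
Acsl3: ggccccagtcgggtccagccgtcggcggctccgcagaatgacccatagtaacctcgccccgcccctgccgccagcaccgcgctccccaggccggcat
The GC content of these windows was 43.3% for Fabp1, 34.0% for Fabp2 and 74.2% for Acsl3.

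The windows of 300 bases around the start (250 before to 50 after) were searched on both strands for 3 motifs. The direct repeat AGGTCANAGGTCA, the element bound by PPAR and HNF4 receptors, was allowed 1 mismatch and occurred in 182 of 32851 promoters (0.554%). The only match among the members was TGACCTATGGCCT in Fabp1, which begins 67 bases before the start and reads on the minus strand. The HNF4 motif CAAAGTCCA, with 1 mismatch, occurred in 8.47% of promoters and among the members only as TGCACTTTG in Fabp2, beginning 137 bases before the start. TATAAA without a mismatch occurred in 13.6% of promoters and among the members only in Fabp1, 30 bases before the RefSeq start. That position lies inside the Fabp1 gene as annotated by GENCODE. None of these matches overlapped another. They describe letters in the window and not binding.

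The deposited matrices held 19404 cells, and 18235 were analysed, with medians of 4535 to 6203 UMIs (unique molecular identifiers, each a counted transcript) per cell. The lowest total of a deposited cell ranged from 2354 to 3963 UMIs, so the cutoff differed between libraries. Of 19204 distinct barcodes, 197 occurred in more than 1 library. Libraries also fell into 2 sets by how their enterocyte-lineage cells were spread over clusters. Sham 1 and resection 1 formed the first set, and sham 2, sham 3 and resection 2 the second. Cluster shares overlapped by 12.3 to 40.6% between libraries of a set and by 1.23 to 3.34% between sets, and median mitochondrial shares were 11.6 to 13.3% in the first set and 7.22 to 9.09% in the second. The labels name no batch. Enterocyte-like clusters were mostly specific to 1 library, and differences within each set are given beside the results.

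Cells fell into 20 clusters, named by markers that exclude the 8 genes: 10035 enterocyte-like, 4487 immature enterocyte-like, 1625 cycling-like, 1060 Paneth-like, 711 goblet-like and 317 T cell-like cells. No cluster was stem-like in this clustering. Levels are given as CPM, UMIs per 1000000 UMIs of the summed class in a library. Because each UMI is a tag at the 3′ end, CPM carries no gene length. Capture may differ between genes, so levels are compared within a gene, and ratios of genes only across cells and libraries.

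**Figure D1:**
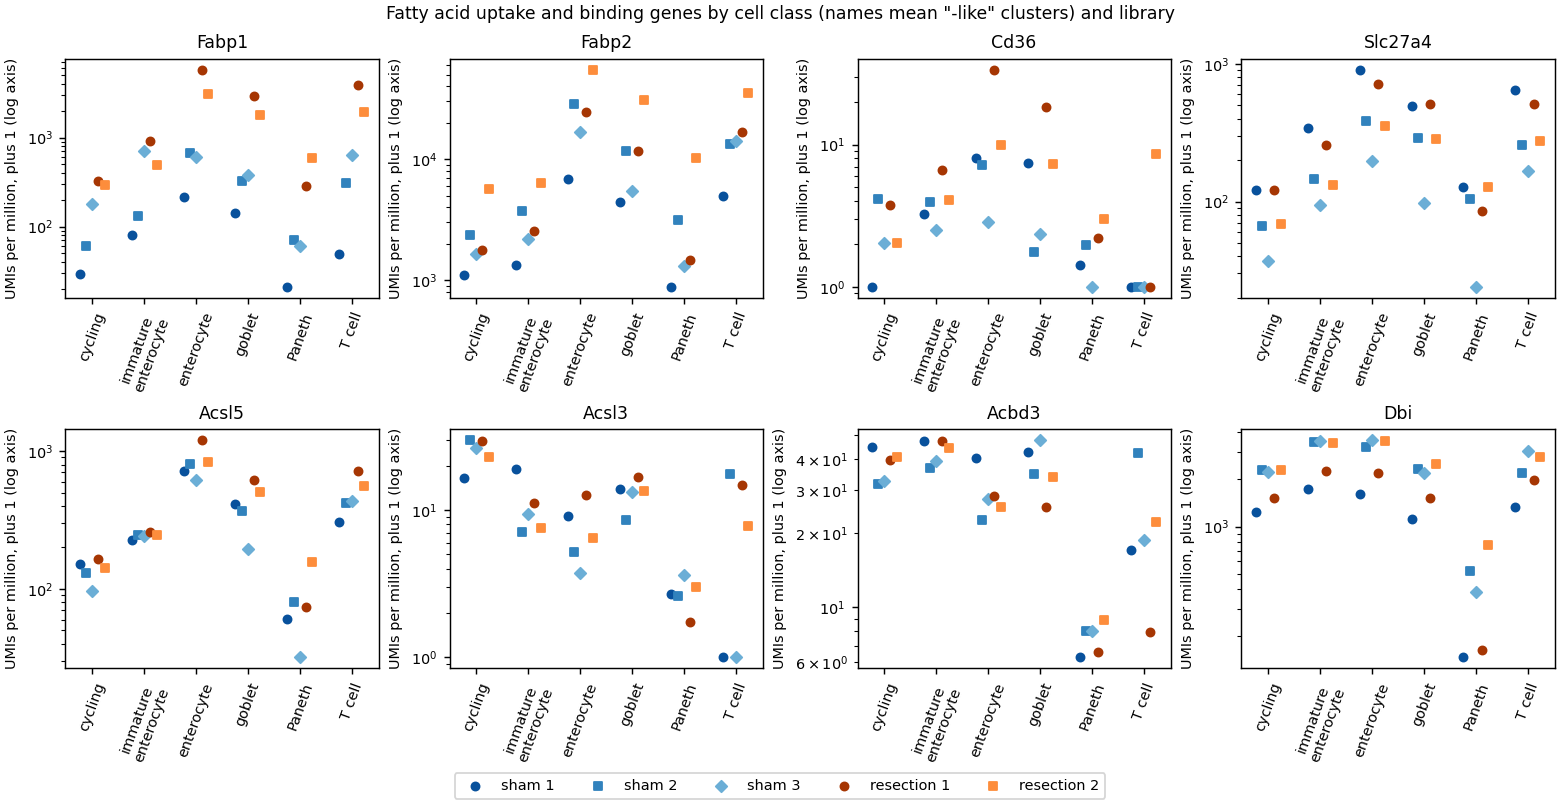
Level of each of the 8 genes (CPM plus 1, log axis) in 6 cell classes; each point is 1 library, blue for sham and orange or brown for resection. Fabp1, Fabp2, Slc27a4 and Acsl5 were highest in enterocyte-like cells, with Fabp1 in sham 3 the exception, Acsl3 was highest in cycling-like cells in 4 of 5 libraries, and both resection libraries exceeded every sham library in Fabp1 in each class drawn except immature enterocyte-like cells.

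Among the epithelial classes, transcripts of the uptake genes were highest in enterocyte-like cells. Slc27a4 stood at 904, 386 and 197 CPM in the enterocyte-like cells of sham 1, 2 and 3 and at 718 and 354 CPM in those of resection 1 and 2. The 2 libraries of the first set were the highest whatever the surgery, and the groups overlapped. Against enterocyte-like cells, Slc27a4 was 3.15-fold lower in immature enterocyte-like cells (log2 -1.65 ± 0.13 SE) and 8.66-fold lower in cycling-like cells (log2 -3.11 ± 0.14 SE), with edgeR adjusted p of 2.89e-13 and 4.74e-20. Cd36 was sparse. Enterocyte-like cells held 26, 48 and 16 Cd36 UMIs in the sham libraries and 423 and 174 in the resection libraries, which is 7.04, 6.23 and 1.84 CPM against 32.5 and 8.97 CPM. Resection 1 stood apart, and the lowest resection value lay just above the highest sham value. Cd36 was 3.90-fold lower in immature enterocyte-like than in enterocyte-like cells (log2 -1.97 ± 0.24 SE, edgeR adjusted p = 7.98e-09). Cycling-like cells of sham 1 held no Cd36 UMI.

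The transcripts of the activating enzymes differed from each other. Acsl5, an acyl-CoA synthetase of mitochondria and endoplasmic reticulum, stood at 719, 801 and 620 CPM in sham and 1197 and 832 CPM in resection enterocyte-like cells, with no overlap of the groups. In immature enterocyte-like cells its level was nearly the same in all 5 libraries, 227 to 256 CPM. It was 4.04-fold lower there than in enterocyte-like cells (log2 -2.01 ± 0.15 SE) and 9.16-fold lower in cycling-like cells (log2 -3.20 ± 0.17 SE), with edgeR adjusted p of 2.53e-13 and 2.08e-18. Acsl3, an acyl-CoA synthetase of the endoplasmic reticulum and lipid droplets, had its highest mean level in cycling-like cells, at 15.4, 28.7 and 25.4 CPM in sham and 28.2 and 21.95 CPM in resection. It was the highest class in 4 of 5 libraries, and in sham 1 immature enterocyte-like cells were higher. In enterocyte-like cells it stood at 8.13, 4.15 and 2.76 CPM and at 11.7 and 5.41 CPM. Acsl3 was 2.83-fold higher in cycling-like than in enterocyte-like cells (log2 1.502 ± 0.20 SE, edgeR adjusted p = 3.48e-08), the only one of the 8 genes called higher there. The difference between immature and mature enterocyte-like cells was log2 0.19 ± 0.20 SE for Acsl3, with an edgeR adjusted p of 0.427.

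Transcripts of the cytosolic binding proteins varied widely between libraries. Fabp2 stood at 6921, 28495 and 16730 CPM in the enterocyte-like cells of the sham libraries and at 24678 and 54697 CPM in those of the resection libraries. Sham 1 was lowest and resection 2 highest, and sham 2 lay above resection 1. Fabp2 had the largest class difference of the 8 genes against both immature and cycling-like cells: it was 9.40-fold lower in immature enterocyte-like cells (log2 -3.23 ± 0.18 SE) and 15.0-fold lower in cycling-like cells (log2 -3.91 ± 0.19 SE). Fabp1 stood at 212, 672 and 605 CPM in sham and at 5740 and 3053 CPM in resection enterocyte-like cells, with no overlap of the groups. It was 3.98-fold lower in immature (log2 -1.99 ± 0.29 SE) and 13.7-fold lower in cycling-like cells (log2 -3.77 ± 0.32 SE) than in enterocyte-like cells. The edgeR adjusted p of these 4 differences lay between 1.75e-19 and 2.53e-07. In sham 3 alone, Fabp1 was higher in immature enterocyte-like cells, at 708 CPM, than in enterocyte-like cells.

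Dbi and Acbd3 encode the acyl-CoA binding members. Dbi stood at 1615, 3208 and 3540 CPM in sham and 2183 and 3526 CPM in resection enterocyte-like cells, and the low values were those of the first set. It was 2.13-fold lower in cycling-like cells (log2 -1.09 ± 0.12 SE, edgeR adjusted p = 2.20e-10). Against immature cells the difference was log2 -0.26 ± 0.11 SE with an edgeR adjusted p of 0.0476, a call kept in 5 of 12 alternatives. It was lost when any 1 library was left out and with DESeq2 size factors, and the value was log2 0.04 with library totals as the only scaling. Acbd3 stood at 39.3, 21.5 and 26.4 CPM in sham and 27.3 and 24.5 CPM in resection enterocyte-like cells. It was 1.27-fold higher in immature enterocyte-like cells (log2 0.34 ± 0.10 SE, edgeR adjusted p = 0.00363), a call lost with coarser clusters, with genes scaled per library or with doublets kept. Its level in cycling-like cells differed by log2 -0.12 ± 0.12 SE (adjusted p = 0.359), a sign that turned with library totals alone and with DESeq2 or its size factors.

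Counted together, 7 of the 8 genes differed between immature and mature enterocyte-like cells by edgeR, 6 lower and 1 higher, where 64.8% of the 10824 genes tested were called in either direction. Against cycling-like cells 7 of 8 differed, with 79.8% of all genes called. The median difference of the 8 genes was log2 -1.81 and -3.14 in these contrasts, beside 0.04 and 0.03 over all genes tested. Calls over all genes were 3653 higher and 3356 lower for immature cells and 4393 and 4240 for cycling-like cells. With library totals as the only scaling they were 5014 and 1828, and 5893 and 2536, and the median of all genes moved to log2 0.34 and 0.59.

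The secretory classes carried lower levels of the same 6 genes. In goblet-like cells Fabp1, Fabp2, Cd36, Slc27a4, Acsl5 and Dbi were lower than in enterocyte-like cells, from log2 -0.86 ± 0.12 SE for Dbi to log2 -1.41 ± 0.17 SE for Fabp2, with 52.9% of all genes called. In Paneth-like cells these 6 were lower too, from log2 -0.44 ± 0.13 SE for Slc27a4 to log2 -1.59 ± 0.43 SE for Cd36, with 51.1% of all genes called. Acsl3 and Acbd3 did not pass the test in either class. Paneth-like cells spend most of their UMIs on defensins and lysozyme, and with library totals alone the median of all genes was log2 -1.99 there, against -0.01 with TMM. In goblet-like cells the calls over all genes were 2913 higher and 2809 lower, or 3920 and 1203 with library totals alone. In Paneth-like cells they were 2682 and 2852, or 523 and 8993. Ordered by plain CPM over the 5 libraries, the goblet-like class came right after the enterocyte-like class for Fabp1, Fabp2, Cd36, Slc27a4 and Acsl5. The gap was larger than its spread over libraries for all of these except Cd36 (mean log2 0.75, SD 0.78, on CPM plus 1). On this plain scale, cycling-like and Paneth-like cells did not differ beyond their spread for Fabp1, Fabp2, Cd36 and Slc27a4. In the TMM fits against enterocyte-like cells, the same genes were further below in cycling-like cells. In that order they stood at log2 -3.77, -3.91, -3.16 and -3.11 in cycling-like cells, and at -1.36, -1.32, -1.59 and -0.44 in Paneth-like cells. No fit compared these classes directly.

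Fabp1 and Fabp2 transcripts, which T cells should lack, were also counted in T cell-like droplets. In T cell-like droplets Fabp2 stood at 5008, 13343 and 14142 CPM in sham and at 16784 and 35522 CPM in resection libraries, 46.8 to 84.5% of the level in enterocyte-like cells of the same library. Fabp1 stood at 48.5, 304 and 641 CPM in sham and at 3896 and 1940 CPM in resection. These droplets held enterocyte markers at 56.3 to 75.0% of the enterocyte-like level, as well as T cell markers (5932 to 12755 CPM, against 20.8 to 68.8 CPM in enterocyte-like cells). Free RNA and droplets with attached enterocytes cannot be told apart here. Compared with these droplets, Fabp2 in goblet-like, immature, cycling-like and Paneth-like cells lay below the T cell-like level in all 5 libraries, so how much of it came from their own transcripts was not tested. The enterocyte-like class lay above it in 5 of 5 libraries for Fabp2 and in 4 of 5 for Fabp1, and no other class lay above it in more than 2 libraries for either gene. Slc27a4, Acsl5 and Dbi stood in these droplets at 66.0 to 84.5%, 42.7 to 69.8% and 68.7 to 91.2% of the enterocyte-like level. Slc27a4 and Acsl5 exceeded the droplets in 0 of 5 libraries in immature, cycling-like and Paneth-like cells. In goblet-like cells they did so in 2 and 1 of 5. Dbi did so in 5 of 5 in immature, 1 of 5 in cycling-like and goblet-like and 0 of 5 in Paneth-like cells. How much of these levels was the classes' own was not tested.

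The share of cells with a Fabp1 UMI, at 2000 UMIs per cell, was 23.9, 48.2 and 47.7% of enterocyte-like cells in sham and 92.5 and 86.2% in resection. Unthinned, these shares were 40.5, 63.8 and 69.0% and 98.8 and 94.2%, at medians of 3884 to 5552 UMIs. T cell-like droplets, at medians of 3937 to 6623 UMIs, gave thinned shares of 0, 24.1 and 42.9% in sham and 100 and 77.9% in resection, from 12, 58, 28, 20 and 199 droplets, and unthinned shares of 16.7, 31.0, 64.3, 100 and 91.5%. No cell had to be left out for thinning. The exact 95% interval of the unthinned T cell-like share lay below the enterocyte-like share in sham 2 alone (19.5 to 44.5%). It held that share in sham 1 (2.09 to 48.4%), sham 3 (44.1 to 81.4%), resection 1 (83.2 to 100%) and resection 2 (86.7 to 94.9%). In these 4 libraries the unthinned share of enterocyte-like cells with a Fabp1 UMI was therefore not shown to exceed that of T cell-like droplets. After thinning the interval lay below the enterocyte-like share in sham 2 (13.9 to 37.2%) and resection 2 (71.5 to 83.5%). Cd36 gave thinned shares of 1.07, 1.45 and 0.238% in sham and 6.42 and 1.95% in resection (unthinned 3.67, 2.44, 1.27, 13.7 and 3.99%). None of the 98 sham T cell-like droplets held a Cd36 UMI, which allows a share of up to 3.06%. In resection 2, 4.52% of the 199 T cell-like droplets held one, beside 3.99% of its enterocyte-like cells, and in resection 1 none of 20 did. Intervals and limits cover counting error only.

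Along enterocyte maturity, 5 of the 8 genes rose. The 14522 enterocyte-like and immature enterocyte-like cells were ordered in each library by a score of 8 late and 9 early villus genes, none of them a member, and cut into 5 equal bins. The early genes include all 7 markers that named the immature enterocyte-like class, and the bottom bin held 70.7 to 91.7% such cells. The maturity comparison therefore partly repeats the class comparison. The top bin was compared with the bottom bin within libraries. Fabp2 rose most, from 1592, 3651 and 1859 CPM in the bottom bin of the sham libraries to 11613, 37612 and 29027 CPM in the top bin, and from 3597 and 7190 to 32906 and 90606 CPM in the resection libraries. It increased at every step in all 5 libraries, as did Slc27a4. The fitted rise was 12.7-fold for Fabp2 (log2 3.67 ± 0.19 SE), 4.596-fold for Acsl5 (log2 2.20 ± 0.13 SE) and 3.81-fold for Slc27a4 (log2 1.93 ± 0.12 SE), with edgeR adjusted p of 3.34e-09, 8.86e-09 and 1.32e-08.

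Fabp1 rose by log2 2.49 ± 0.33 SE, or 5.61-fold (edgeR adjusted p = 1.58e-05), but unevenly. Its CPM ratio of top to bottom bin was 4.59 in sham 1, 8.79 in sham 2, 4.81 in resection 1 and 8.47 in resection 2, and only 1.20 in sham 3. In sham 3 Fabp1 stood at 616 CPM in the bottom bin, above the top bin of sham 1. Cd36 rose by log2 2.20 ± 0.30 SE, or 4.61-fold (edgeR adjusted p = 2.19e-05). Its plain ratio was above 1 in 4 of 5 libraries and 0.768 in sham 1, from 4 UMIs in the top and 6 in the bottom bin. In resection 1 Cd36 climbed from 7.17 to 41.2 CPM, the widest range of any library.

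Acbd3 fell by log2 0.52 ± 0.12 SE from the bottom to the top bin (edgeR adjusted p = 0.00218). The top bin was lower in all 5 libraries, at 0.465 to 0.665 of the bottom bin. The call was lost, at log2 -0.08, when cells were ordered by the late genes alone. Dbi did not pass the test (log2 0.02 ± 0.12 SE, edgeR adjusted p = 0.905), and its plain ratio was 0.796 to 0.927 in all libraries. Acsl3 did not pass it either (log2 0.75 ± 0.35 SE, adjusted p = 0.0728). So 5 of 8 genes were called higher, beside 30.9% of the 9774 genes tested, and 1 of 8 lower, beside 31.2%. The median of the 8 was log2 2.07 against -0.01 over all genes. With library totals alone the median of all genes moved to log2 -0.28 and the calls from 3025 higher and 3054 lower to 2101 and 4127. Between 6.49 and 6.80% of the ordered cells lay within 0.1 SD of a cut. Median UMIs per cell were lower in the top than in the bottom bin of every library, and the same 5 genes were called higher after all cells were thinned to 2000 UMIs.

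**Figure D2:**
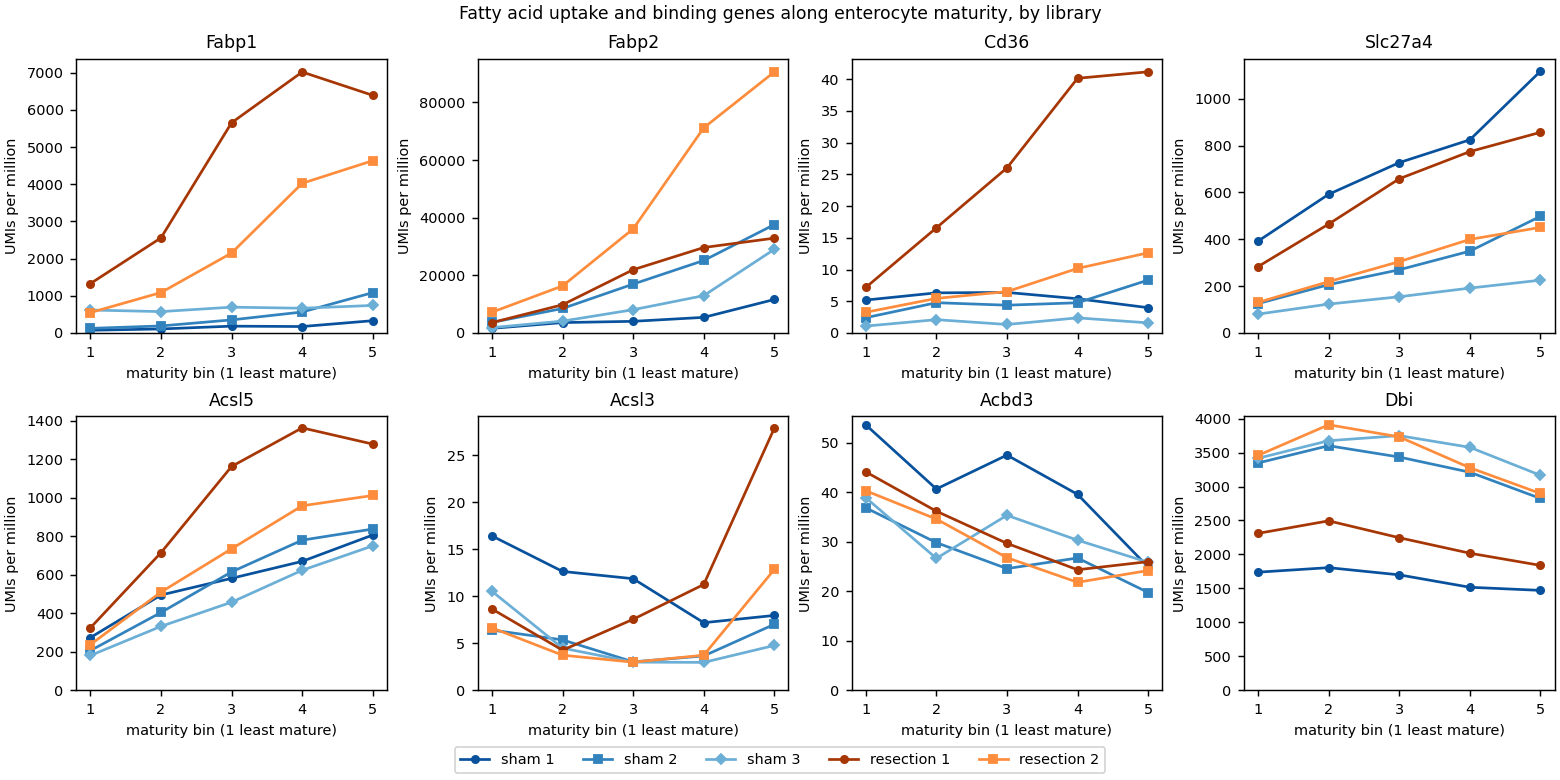
Level of each gene (CPM, axis from 0) in 5 equal bins of the enterocyte lineage ordered by maturity, 1 line per library. Fabp2 and Slc27a4 increased at every step in each library, and Acbd3 ended lower in each. Acsl3 was higher in the top bin than in bin 4 in every library, with the larger rises in the resection libraries.

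The comparison of resection with sham asked which genes of the remaining ileum differ after the loss of bowel. In enterocyte-like cells Fabp1 had the largest difference of the 8 genes. The sham mean was 496 ± 248 CPM (SD, n = 3) and the resection mean 4397 ± 1900 CPM (SD, n = 2), 8.86 times as high. The fitted difference was log2 2.99 ± 0.60 SE. It was found in both library sets, at log2 4.76 for resection 1 against sham 1 and log2 2.26 for resection 2 against the mean of sham 2 and 3. Even so, the edgeR adjusted p over all genes was 0.488, so Fabp1 did not pass the test. DESeq2 called it, with an adjusted p of 8.40e-05, and over the 14 alternatives the adjusted p ran from 4.12e-08 to 0.99996, with a call in 3 of them.

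None of the 8 genes was called in enterocyte-like cells by edgeR, nor was any other of the 9997 genes tested (0.0%), while 401 had an unadjusted p under 0.05 and DESeq2 called 44. Cd36 had log2 1.99 ± 0.59 SE (edgeR adjusted p = 0.900), at log2 2.21 in the first set and 1.15 in the second. Fabp2 had log2 1.11 ± 0.71 SE, at 1.83 and 1.27 within the sets, and Acsl3 log2 0.78 ± 0.42 SE, at 0.52 and 0.65. Acsl5 had log2 0.44 ± 0.33 SE, at 0.74 and 0.23. Slc27a4 (log2 0.13 ± 0.53 SE), Acbd3 (log2 -0.18 ± 0.25 SE) and Dbi (log2 -0.04 ± 0.53 SE) had differences smaller than their errors, and those of Slc27a4 and Acbd3 had opposite signs in the sets. Dbi was higher after resection within both sets, at log2 0.43 and 0.06, opposite in sign to its fit. The edgeR adjusted p of the 6 genes other than Fabp1 and Cd36 was 0.9999 each. Fabp1, Cd36 and Acsl5, 3 of the 8 genes, had no overlap between groups and were higher after resection, a pattern held by 8.06% of the genes tested. None of the 8 was lower without overlap, beside 5.27% of genes. The median of the 8 was log2 0.61, beside -0.02 over all genes.

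**Figure D3:**
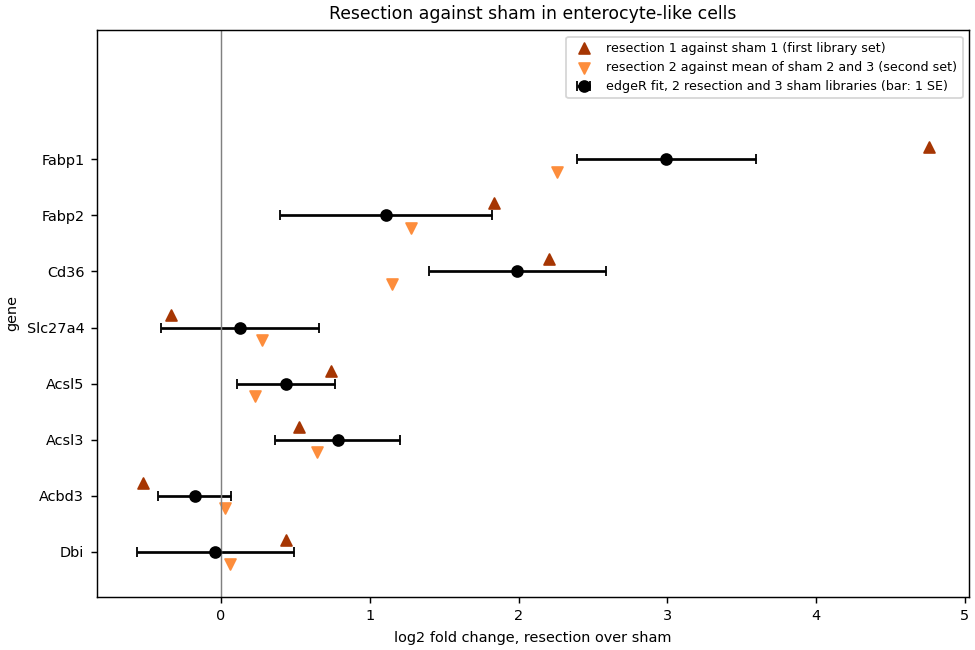
Log2 fold change, resection over sham, of each gene in enterocyte-like cells; black points are the edgeR fit with 1 SE, and triangles are plain CPM differences within each library set. Fabp1, Fabp2, Cd36, Acsl5 and Acsl3 lay above 0 in the fit and in both sets, and Slc27a4, Acbd3 and Dbi lay between -0.18 and 0.13 in the fit.

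Among the enterocyte, immature enterocyte and T cell marker sums of these cells, only that of the immature enterocyte markers had no overlap between groups. The cycling marker sum did not overlap either, at 63.2 to 88.6 CPM in sham and 54.3 to 58.8 CPM in resection. Nor did the fibroblast marker sum, which was at most 0.519 CPM. The summed level of the 11 enterocyte markers was 8537 to 12816 CPM in sham and 12183 to 16849 CPM in resection enterocyte-like cells. That of the 7 immature enterocyte markers was 2081 to 2507 CPM in sham and 1238 to 1467 CPM in resection. All 8 T cell markers were detected, at 30.7 to 68.8 CPM and 20.8 to 45.5 CPM. Of the 4 endothelial markers, Cdh5, Kdr and Plvap were at 0 in every library. The part of cell maturity in the difference was not tested by these sums. Fabp1 is also given by maturity bin, but bins were cut within each library and are not matched for maturity between the surgeries. Immature enterocyte-like cells made up 19.1 to 36.5% of bin 3 in sham libraries, against 7.25 to 11.9% after resection. These shares were 15.0 to 19.1% against 2.25 to 3.15% in bin 4, and 6.01 to 11.2% against 1.20 to 1.77% in the top bin. The groups overlapped in the bottom bin and in bin 2. A difference at equal maturity was not tested. The resection mean of Fabp1 was 3.47 times the sham mean in the bottom bin and 7.68 times in the top bin. In bins 2, 3 and 4 it was 6.28, 9.54 and 11.8 times as high. For Fabp2 these ratios ran from 2.28 to 3.48 and for Cd36 from 1.80 to 6.03.

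The fitted difference of Fabp1 had the same sign in every other class. It was log2 2.99 ± 0.50 SE in goblet-like cells (edgeR adjusted p = 0.219), 2.93 ± 0.52 SE in Paneth-like cells (adjusted p = 0.0661), 1.63 ± 0.57 SE in cycling-like cells and 0.97 ± 0.87 SE in immature enterocyte-like cells (adjusted p of at least 0.9999). Immature cells stood at 80.0, 131 and 708 CPM in sham and 910 and 488 CPM in resection, so sham 3 lay above resection 2. Goblet-like cells stood at 141, 321 and 382 CPM against 2925 and 1803 CPM, but the T cell-like droplets of the same libraries showed the same split, as given above. Whether the goblet-like and Paneth-like values hold any transcript of their own was not tested. Over all epithelial cells the difference was log2 2.88 ± 0.62 SE (edgeR adjusted p = 0.877). Fabp2 differed by log2 0.80 ± 0.65 SE to 1.54 ± 0.59 SE over these classes and did not pass the edgeR test in any. Without resection 2 its sign turned in immature (log2 -0.26) and cycling-like cells (log2 -0.17).

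No member passed the edgeR test in these classes. Over the alternatives Fabp1 was called in 6 of 14 in goblet-like, 6 of 14 in Paneth-like, 2 of 13 in cycling-like, 1 of 14 in immature and 2 of 14 in all epithelial cells. In Paneth-like cells these included leaving out resection 1 (adjusted p = 0.0158) or resection 2 (adjusted p = 0.00200). Fabp2 was called in 1 alternative each in goblet-like, cycling-like, immature and all epithelial cells. By edgeR, 0.0% of the genes tested were called in immature, cycling-like and goblet-like cells and in all epithelial cells, and 0.0308% (2 of 6488, neither a member) in Paneth-like cells. At an unadjusted p under 0.05 there were 186, 162, 166, 341 and 121 genes, and DESeq2 called 4, 3, 5, 32 and 5. With library totals alone the median of all genes moved to log2 0.16 in Paneth-like and 0.14 in all epithelial cells.

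Within the enterocyte-like class, Fabp1 varied between clusters, which were formed without the 8 genes. In resection 1 it stood at 10298 CPM in cluster 7 (1026 cells), 2650 CPM in cluster 19 and 2025 CPM in cluster 9. Cluster 7 also held 60.0 CPM of Cd36, against 18.4 and 8.30 CPM in the other two. In resection 2 Fabp1 ranged from 693 CPM in cluster 5 to 4841 CPM in cluster 0 (2019 cells), and Fabp2 from 9794 to 87777 CPM in the same clusters. The sham libraries mostly stayed between 199 and 617 CPM of Fabp1. The exception was 52 cells of sham 2 in cluster 0, which held 2950 CPM of Fabp1, 67968 CPM of Fabp2 and 42.3 CPM of Cd36. Of the sham 2 enterocyte-like cells, 3.02% lay in that cluster, against 49.8% of those of resection 2. Cluster shares between the groups were not tested.

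**Figure D4:**
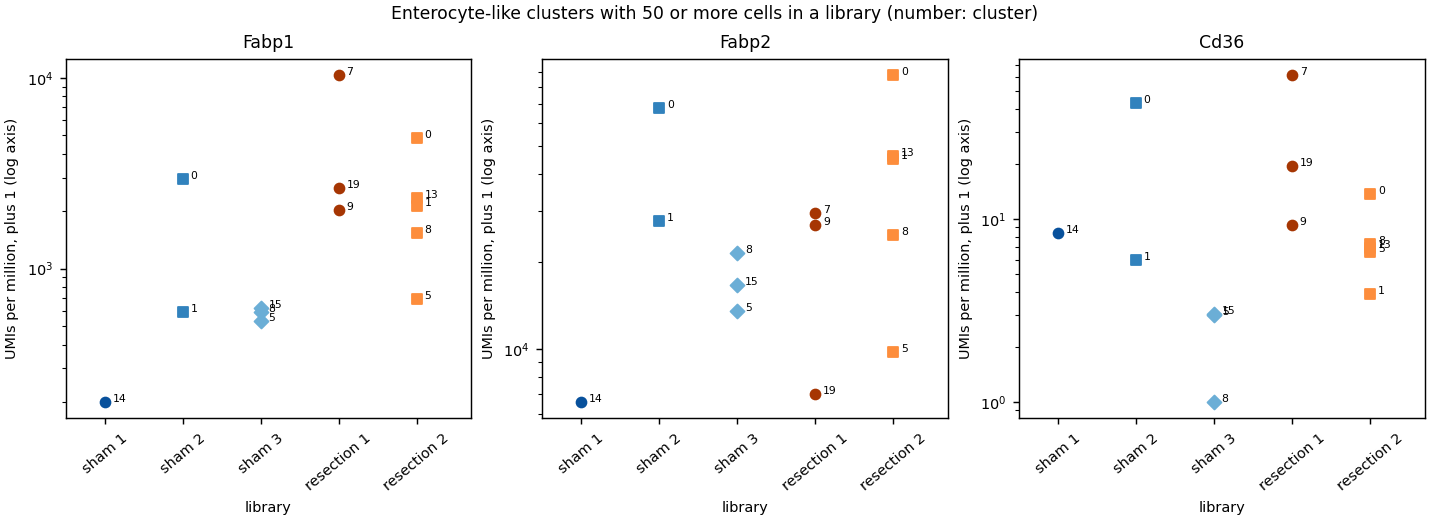
Fabp1, Fabp2 and Cd36 (CPM plus 1, log axis) in each enterocyte-like cluster with at least 50 cells in a library; the number beside a point is its cluster. Fabp1 was highest in cluster 7 of resection 1, and the small part of sham 2 in cluster 0 stood above the rest of the sham cells.

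The balance of the transcripts of the 2 binding proteins was compared as the log2 ratio of Fabp1 to Fabp2 UMIs. In enterocyte-like cells there were 3.06, 2.36 and 3.62 Fabp1 UMIs per 100 Fabp2 UMIs in sham and 23.3 and 5.58 in resection. The ratio was log2 -5.08 ± 0.31 (SD, n = 3) in sham and -3.13 ± 1.46 (SD, n = 2) in resection. The difference was log2 1.94, with a 2-sided exact permutation p of 0.2. This is the smallest that doubling the smaller tail can give with 2 against 3 libraries. It was log2 2.93 in the first set and 0.94 in the second, and resection 1 was the higher of its group. Of all Fabp1, Fabp2 and Fabp6 UMIs in enterocyte-like cells, Fabp1 made up 0.525, 1.25 and 0.958% in sham and 15.0 and 3.85% in resection. Fabp6, the ileal bile acid binder, made up 82.3, 45.7 and 72.6% in sham and 20.4 and 27.1% in resection. Wilson 95% intervals of these shares were at most 0.194 percentage points to either side. They cover counting error only and not the spread between cells or libraries.

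The ratio also varied with maturity. In all 5 libraries it was higher in immature than in mature enterocyte-like cells, by log2 0.45 to 3.15, and higher in the bottom than in the top bin, by log2 0.23 to 3.70. Sham 3 set the upper end of both ranges: its bottom bin held 33.2 Fabp1 UMIs per 100 of Fabp2, near the 36.9 of resection 1, and its top bin 2.55, near the 2.84 and 2.88 of sham 1 and sham 2. In the top bin the sham libraries lay between log2 -5.29 and -5.12, below the -4.29 and -2.36 of the resection libraries. In T cell-like droplets the ratio differed from that of enterocyte-like cells by at most log2 0.05 in sham 2, resection 1 and resection 2, by 0.32 in sham 3 and by -1.66 in sham 1, where it rested on 3 Fabp1 UMIs.

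**Figure D5:**
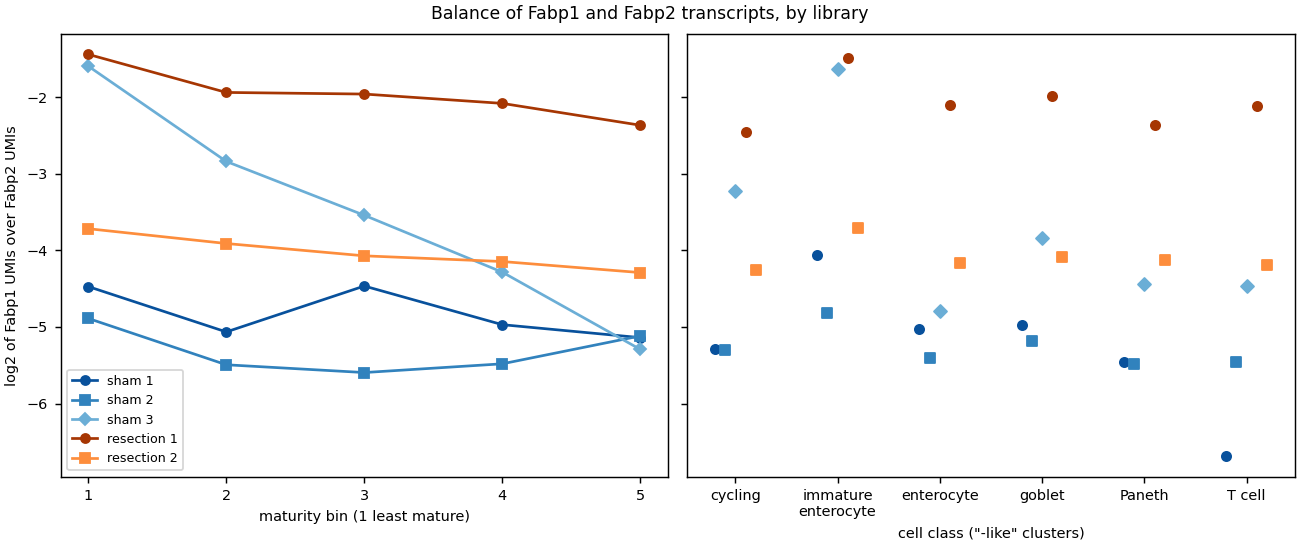
Log2 ratio of Fabp1 to Fabp2 UMIs by maturity bin (left) and by cell class (right), 1 colour per library. Resection 1 lay highest throughout, sham 3 fell from near resection 1 in the bottom bin to the other sham libraries in the top bin, and T cell-like droplets of sham 2 and both resection libraries lay within 0.05 of the enterocyte-like ratio of their own library.

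Whether the course along maturity differed between the surgeries was tested as an interaction over the sums of the top and bottom bins. These bins were cut within each library and are not matched for maturity between the surgeries. Acsl3 was the only one of the 8 genes called, 1 of 8 higher beside 0.573% of the 9774 genes, while 2.1% were called lower and no member was. From the bottom to the top bin, Acsl3 went from 16.4 to 7.96 CPM in sham 1, 6.41 to 7.02 in sham 2 and 10.5 to 4.77 in sham 3. It went from 8.65 to 27.9 CPM in resection 1 and from 6.65 to 12.9 in resection 2. The ratio of top to bottom was 0.485, 1.10 and 0.453 in sham and 3.22 and 1.93 in resection, with no overlap. The interaction was log2 2.10 ± 0.42 SE (edgeR adjusted p = 0.00554, range 2.54e-05 to 0.292 over the alternatives). It was called in 9 of 13 alternatives that gave an adjusted p, and lost without sham 3 (0.0706), without resection 1 (0.0550), with cut points common to all libraries (0.137) and after thinning (0.292). The top bin held 8, 16 and 12 Acsl3 UMIs in sham and 88 and 59 in resection.

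The other 7 members did not pass this test. Cd36 had log2 1.39 ± 0.58 SE (edgeR adjusted p = 0.273) and Fabp1 log2 0.98 ± 0.47 SE (adjusted p = 0.369), which passed without resection 1 (log2 1.35, adjusted p = 0.00927) and without a filter on low counts (adjusted p = 0.000893). Without sham 3 the Fabp1 value was log2 0.035 (adjusted p = 0.987), and without sham 2 it was 1.69 (adjusted p = 0.115). The remaining 5 lay between log2 0.03 and 0.27, with adjusted p from 0.628 to 0.970. Over all genes 56 were called higher and 205 lower. Library totals alone gave 36 and 310 and moved the median of all genes to log2 -0.12.

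Other genes of fatty acid handling were taken from a list of 23: further FABPs, FATPs and uptake proteins, acyl-CoA synthetases, and acyl-CoA binding or transfer proteins. Only 10 passed the filter on low counts in the maturity comparison, so the counts below describe those 10. Along maturity 7 of 10 were called higher, beside 30.9% of all genes tested, and 2 lower, beside 31.2%, with a median of log2 0.90 against -0.01 over all genes. Acsf2, an acyl-CoA synthetase of mitochondria, rose by log2 3.10 ± 0.23 SE, and Scp2, which encodes sterol carrier protein, by log2 1.56 ± 0.15 SE. Acbd6, another acyl-CoA binding protein, fell by log2 1.75 ± 0.17 SE. By role, binding gave 1 of 1 tested higher, uptake 1 higher and 1 lower of 2, activation 2 of 3 higher, and acyl-CoA binding 3 higher and 1 lower of 4. In the interaction, 1 of the 10 was called higher, beside 0.573% of all genes: Slc27a2, which encodes the very long-chain transporter FATP2, at log2 1.60 ± 0.37 SE (edgeR adjusted p = 0.0173, range 0.00133 to 0.201 over the alternatives). The call was lost without sham 1 (0.0881), sham 3 (0.142) or resection 1 (0.0757), with late genes alone (0.201) and after thinning (0.0758). Between resection and sham enterocyte-like cells 0 of 11 tested were called by edgeR (0.0% of all genes), with a median of log2 0.12. Fabp6, named here after its values were seen, had log2 -1.24 ± 0.60 SE (adjusted p = 0.9999), opposite in sign to Fabp1 and Fabp2.

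Of 10 transcription factors known to act on such genes, 9 were tested along maturity, with 4 called higher and 1 lower, beside 30.9% and 31.2% of all genes, and a median of log2 0.35. Creb3l3, which encodes a membrane-bound factor of lipid metabolism, rose by log2 3.32 ± 0.18 SE and Hnf4a, a nuclear receptor of enterocyte genes, by log2 0.44 ± 0.12 SE. Ppara, the fatty acid-sensing nuclear receptor, fell by log2 1.10 ± 0.27 SE. None of the 9 was called in the interaction or between resection and sham enterocyte-like cells.

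Likeness of pattern was described over the 25 sums of 5 classes and 5 libraries by Pearson's r of log2(CPM + 10), among 4574 genes with a mean of at least 20 CPM. These sums share libraries and depth, so no test is given. Fabp2 was most like Apoa1 (r = 0.966), Sepp1 (0.950) and Espn (0.939), and Fabp1 most like Rbp2 (0.876), Apoc3 (0.869) and Ifit1bl2 (0.862). Apoa1 and Apoc3 encode apolipoproteins and Rbp2 a retinol-binding protein of the FABP superfamily. Acsl5 was most like Rfk (0.986), Epb41l3 (0.984) and Dpp4 (0.982), the last an enterocyte marker, and Slc27a4 most like Slc43a2 (0.976), Eps8l2 (0.964) and Gpt (0.961). Cd36, at a mean of only 4.67 CPM, was most like Cdr2 (0.930), Ephx2 (0.889) and Fbln1 (0.882). Acsl3 was most like Usp1 (0.940), Ezh2 (0.939) and Ipo7 (0.938). Ezh2 encodes a histone methyltransferase of dividing cells. Acbd3 was most like Preb (0.975), Aamp (0.968) and Erp29 (0.966), and Dbi most like Ndufa6 (0.994), Smdt1 (0.988) and Mgst3 (0.987).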

How the data were processed

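Single cells of the ileal epithelium were profiled in 3 sham and 2 resection libraries, grouped by their labels. The authors deposited unnormalised counts of UMIs for each gene and cell, made with Cell Ranger per the labels, whose version is marked there as uncertain. The submitters' processing notes name mm10 and GRCm38. The deposited gene and barcode names hold no measurement and served only as other, textual identifiers.

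A cell needed 500 detected genes and no more than 20% mitochondrial UMIs. The 720 cells (3.80%) scored most like simulated doublets were removed, with an expected rate that rises with the number of cells. Counts were clustered (scanpy 1.11.5, leidenalg 0.10.2, resolution 1, 2000 variable genes, 30 components, 20 neighbours) without the 8 genes, the wider lists or mitochondrial genes, and clusters were named by marker genes. Counts were summed per library and class or maturity bin. Sums were tested, 2-sided, by the quasi-likelihood test of edgeR 4.0.16 after its default filter on low counts and TMM scaling, with Benjamini-Hochberg adjustment over all genes tested and a threshold of 0.05. Surgery was compared over libraries, and maturity and class within libraries. DESeq2 1.42.0, other scalings, filters, clusterings and maturity scores, and leaving out each library were alternatives. The library totals alternative for maturity and class was added after the data were seen. The fits were tested on simulated data. Totals were 11749028 to 41281731 UMIs per library.

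The 8 genes and the lists were chosen with earlier results of these data known. All 8 members are named. Of the wider lists, genes past the threshold are named, at most the 3 with the lowest adjusted p per fit, and of alike genes the 3 with the highest r. The library set was inferred from the cells and the replicate numbers are not stated to pair mice.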

Additional observations from a re-analysis of the deposited data

Results flagged for a closer look

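The course of Acsl3 along maturity differed between the surgeries. The change from the bottom to the top bin was log2 2.10 larger in the resection than in the sham libraries (edgeR interaction, adjusted p = 0.00554), with ratios of top to bottom of 0.453 to 1.10 in sham and 1.93 to 3.22 in resection. Slc27a2 differed in the same way, by log2 1.60 (edgeR adjusted p = 0.0173). Its ratio of top to bottom was 0.864, 1.64 and 0.552 in sham and 2.84 and 2.75 in resection. Both calls were lost after thinning (edgeR adjusted p of 0.292 for Acsl3 and 0.0758 for Slc27a2) and in other alternatives given above. The bins were not matched for maturity between the surgeries.

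Transcript signal for the binding proteins also appeared in T cell-like droplets, which entered no test. Fabp1 stood there at a mean of 2918 CPM after resection, where every sham library was lower (48.5 to 641 CPM). Fabp2 stood at a mean of 26153 CPM after resection, where every sham library was lower (5008 to 14142 CPM).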

How the results depend on the processing

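Of the alternative values for single genes, 702 kept their direction and side of the threshold, 26 turned, 22 lost a call and 41 gained one. In the surgery comparisons the main counts of genes called were 0, 0, 0, 0, 2 and 0 in enterocyte-like, immature, cycling-like, goblet-like, Paneth-like and all epithelial cells. In that order DESeq2 gave 44, 4, 3, 5, 5 and 32, no filter on low counts 191, 23, 14, 33, 13 and 18, the replicate block 155, 170, 78, 46, 69 and 260, and the library set as a term 11, 5, 3, 2, 6 and 1. Goblet-like cells gave 2 with library totals alone and 6 with genes scaled per library. Leaving out 1 library gave 0 to 2, 0 to 2, 0 to 1, 0 to 1, 0 to 15 (without resection 2) and 0. The interaction count of 261 became 423 without a filter, 7 with late genes alone, 47 with common cut points and 135 (without resection 1; 158 without sham 1) to 290 without 1 library. Paneth-like against enterocyte-like cells gave 9516 with library totals alone, against 5534.

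Replicate numbers are not stated to pair mice. Deviations of same-numbered libraries correlated at 0.66 (number 1) and 0.19 (number 2) over 9997 genes, with only 2 pairs. Those of sham 3 and resection 2, which differ in number, correlated at 0.63. The values of a sham library with resection 1 and with resection 2 were equal but opposite in sign. Numbers were therefore used as names, and the replicate block leaves sham 3 without a partner. Sham 3 then adds nothing to the surgery difference, so the p-values of this block rest on 2 pairs not stated to be pairs. Under the replicate block Fabp1 was called by edgeR in all 6 surgery comparisons, with log2 2.61 to 3.51 and adjusted p of 4.10e-35 to 0.00320 (enterocyte-like 0.00118), and Fabp2 in 4. The lowest of these Fabp1 values, in immature cells, compares with log2 0.97 in the main fit, where sham 3 was the highest sham library. Of the values named, Slc27a4 after resection in enterocyte-like cells turned to log2 -0.21 with the replicate block and ran from -0.31 (without resection 1) to 0.67 without 1 library. Dbi there turned to 0.034 (library totals), 0.31 (replicate block) and 0.24 (set term), and ran from -0.57 to 0.35 (without resection 1). Fabp2 ran from -0.26 (without resection 2) to 1.41 in immature and from -0.17 (without resection 2) to 1.80 in cycling-like cells. Along maturity Dbi was -0.014 (no filter), -0.24 (library totals), -0.017 (3 bins in place of 5), -0.077 (common cut points), -0.12 (thinned) and -0.025 (without sham 3) to 0.034 without 1 library. Against enterocyte-like cells, Dbi in immature cells turned to 0.040 (library totals) and Acsl3 there ran from -0.034 (without sham 3) to 0.49. Acbd3 in cycling-like cells turned to 0.044 (DESeq2), 0.037 (its size factors) and 0.43 (library totals), and in goblet-like cells to -0.017 (no filter). In Paneth-like cells Acsl3 turned to 0.0096 (DESeq2) and ran from -0.36 to 0.36 (without resection 1), and Acbd3 from -0.22 to 0.022 (without sham 1). The cause was not tested. No stem-like surgery result could be varied, since the main clustering gave no such class. A stem-like class of 784 cells appeared only with genes scaled within each library. None of the 7928 genes tested there was called for surgery by edgeR, with log2 1.88 for Fabp1 and 1.32 for Fabp2 (adjusted p of 0.9999 each). Against enterocyte-like cells, Acsl3 was higher there by log2 1.59 (edgeR adjusted p = 2.09e-07) and the other members were lower. Fabp1 in T cell-like droplets of sham 1 and Cd36 and Acsl3 in single bins rest on few UMIs, which limits their precision.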
